A study of Mus musculus with 12 samples.

Results

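The genes that carry out and regulate macroautophagy, together with the receptors that bring cargo to it, were measured in sorted mouse alveolar type 2 (AT2) cells. The 38 genes are a fixed list of core autophagy machinery and cargo receptors, matched by symbol to the 21878 genes of the deposited table. The rule goes by gene name and sets no threshold on a measured value, but the list was drawn up with earlier results of these data known. All 38 were found. All 38 were also among the 10675 genes tested, which had at least 1 FPKM (fragments counted on a gene, scaled by its exon length and by the library's total) in at least 3 of 12 samples: 35 reached 1 FPKM in all 12 samples, Atg2b in 11, Ulk2 in 4 and Atg4c in 3.

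AT2 cells make surfactant and act as progenitors of the alveolar epithelium. They were taken from 4 groups of 3 C57BL/6 mouse samples. AT2-PBS and AT2-BLM came from Atg5f/f mice given PBS or bleomycin (BLM), which damages alveolar epithelial cells, and Atg5-/- AT2-PBS and Atg5-/- AT2-BLM came from Nkx2.1Cre; Atg5f/f mice given PBS or BLM. All 4 groups thus carried the floxed Atg5 alleles, and only the Atg5-/- groups carried the Cre, which the Nkx2.1 gene drives throughout the lung epithelium from development and not in AT2 cells alone. BLM was given into the trachea at 2 U/kg, and the study states male mice of 8 to 12 weeks for its BLM experiments and cells taken at day 14. The sort kept CD31- CD34- CD45- EpCAM+ CD24- Sca-1- cells.

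Autophagy encloses cytoplasm in a double membrane, the autophagosome, and delivers it to the lysosome. A kinase complex around ULK1 starts the process, a lipid kinase complex around VPS34 and Beclin 1 marks the membrane, and ATG9 vesicles and lipid carriers enlarge it. Conjugation enzymes, among them the ATG12-ATG5-ATG16L1 complex, then attach ATG8 proteins (the LC3 and GABARAP proteins) to the membrane, and cargo receptors such as p62, the product of Sqstm1, bind both the ATG8 proteins and what is to be degraded. Much of this process is controlled on proteins rather than on RNA, and RNA levels do not measure its rate.

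In BLM-treated lungs of Atg5f/f mice, 7 of the 38 genes were called higher and 0 lower, among them Sqstm1, Atg12, Uvrag, Vmp1 and Atg4a. The share was no larger than that of all genes. Sqstm1, Uvrag and Gabarapl1, 3 of the 38, had a lower BLM effect in Atg5-/- cells before, and not after, adjustment over all genes tested. By the same rule 15.2% of all genes tested had a lower effect there and 5.02% a higher one. After adjustment 7.89% of all genes tested differed. Bulk RNA cannot tell fewer cells with a transcript from less of it per cell, which holds for every value here.

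The promoters of 4 of the 5 genes that passed the adjusted threshold with BLM are shown because these genes were higher together. That of Atg12, which also passed, is not shown. Each is the RefSeq window of 300 bases around a transcript start, most of it upstream (build GRCm38.p6, 5′ to 3′ on the gene's strand, the first listed window where a gene has more than 1). Capitals mark a match to TGACNNNGC on either strand, the core of the antioxidant response element, and the lower-case windows hold none of the 3 motifs searched.
Sqstm1, chr11:50210771-50211070, minus strand: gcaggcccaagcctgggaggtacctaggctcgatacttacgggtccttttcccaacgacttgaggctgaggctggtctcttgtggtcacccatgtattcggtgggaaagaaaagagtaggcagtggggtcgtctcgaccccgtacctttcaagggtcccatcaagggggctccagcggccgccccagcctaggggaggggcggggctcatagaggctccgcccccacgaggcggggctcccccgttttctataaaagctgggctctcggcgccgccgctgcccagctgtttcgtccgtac
Uvrag, chr7:99141095-99141394, minus strand: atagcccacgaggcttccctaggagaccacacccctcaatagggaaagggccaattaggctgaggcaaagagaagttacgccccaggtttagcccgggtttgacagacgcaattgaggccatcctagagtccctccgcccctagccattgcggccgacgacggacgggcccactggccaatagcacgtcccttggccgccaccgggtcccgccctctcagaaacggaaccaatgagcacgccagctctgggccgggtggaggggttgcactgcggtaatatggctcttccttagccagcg
Vmp1, chr11:86683787-86684086, minus strand: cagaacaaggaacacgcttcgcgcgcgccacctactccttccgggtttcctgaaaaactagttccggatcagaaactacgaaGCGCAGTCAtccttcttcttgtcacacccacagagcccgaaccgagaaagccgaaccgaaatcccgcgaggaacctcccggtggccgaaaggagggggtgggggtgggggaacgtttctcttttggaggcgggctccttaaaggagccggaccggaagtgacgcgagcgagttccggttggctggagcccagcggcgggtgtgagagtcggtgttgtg
Atg4a, chrX:140953595-140953894, plus strand: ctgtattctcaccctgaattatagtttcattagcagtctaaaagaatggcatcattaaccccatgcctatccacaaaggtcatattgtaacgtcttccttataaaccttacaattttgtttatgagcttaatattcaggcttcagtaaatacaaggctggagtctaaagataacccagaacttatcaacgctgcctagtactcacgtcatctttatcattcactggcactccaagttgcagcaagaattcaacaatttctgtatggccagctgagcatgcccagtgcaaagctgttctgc
The match in the Vmp1 window lies on the opposite strand to the gene and begins 168 bases before the start. The other 2 windows of Vmp1 hold a match as well. Atg4a has a further window, at chrX:140956657-140956956, which holds none of the motifs searched. Windows were found for 32 of the 38 genes, 40 in all, and both strands were searched. TGACNNNGC occurred in windows of Vmp1, Atg13, Map1lc3b, Tax1bp1 and Ulk2, 7 of the 40 windows, and in 12.4% of all 32851 windows. CACGTG, the core that TFEB-family factors bind, occurred in those of Atg14, Atg3, Atg5 and Atg7, 4 of 40, against 7.15% of all windows, and its extended form TCACGTGA, which contains it, only in that of Atg3 among the 40, against 0.974% of all. A match is a description of these letters and not of a factor's binding.

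Sftpc, the defining AT2 transcript, was listed at 0 in 11 of 12 libraries and at 112570 FPKM in AT2-BLM replicate 2, while the summed AT2 marker list (8 genes, Sftpc included) lay between 33957 and 169611 FPKM. The insulin transcripts Ins1 and Ins2, which lung cells do not make, summed to at least 100 FPKM in 3 libraries. These were AT2-PBS replicate 1 and Atg5-/- AT2-PBS replicates 1 and 2. Only some of the results that rest on these 3 libraries are also given without them. The 6 liver and islet markers (Alb, Apoa1, Fabp1, Mup3, Ins1 and Ins2) summed to 1812 to 5030.2 FPKM in Atg5-/- AT2-PBS, 3.34 to 3001 in AT2-PBS, 147 to 515 in AT2-BLM and 112 to 793 in Atg5-/- AT2-BLM. Leaving out the 3 libraries does not remove the liver transcripts: in Atg5-/- AT2-PBS replicate 3, which stays, Fabp1 was at 769 and Mup3 at 404 FPKM. Y-linked transcripts summed to 14.2 to 20.9 FPKM in 5 libraries and to at most 0.733 in 7, although the study states male mice. The 5 were AT2-PBS replicates 2 and 3, AT2-BLM replicate 3 and Atg5-/- AT2-BLM replicates 2 and 3. Atg5-/- AT2-PBS had none of them, so Y-linked expression cannot be fully told apart from group. The leukocyte marker list (8 genes, Ptprc among them) summed to 158 to 177 FPKM in Atg5-/- AT2-PBS and to 6.01 to 14.9 in AT2-PBS, against a sort for CD45- cells. The airway list (5 genes, Scgb1a1 among them) summed to 22978 to 84299 FPKM in Atg5-/- AT2-PBS and to 4835 to 11587 in AT2-PBS. In Atg5-/- AT2-BLM and AT2-BLM it summed to 1083 to 2130 and to 822 to 4948 FPKM. The FPKM of a library summed to 390141 to 549169. The labels speak of biological replicates without naming animals, so the p-values measure the spread between these samples.

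FPKM are divided by transcript length, so the levels of the genes can be set side by side. By the mean of 12 samples, Gabarap was highest at 563 FPKM, followed by Sqstm1 at 429.6 and Map1lc3a at 399 FPKM, and the ranges of these genes over the 12 samples overlapped. Map1lc3b followed at 268 FPKM, with every sample (232 to 308) below every sample of Map1lc3a (325 to 539). Gabarapl2 came next with 108 to 146 FPKM, below every Map1lc3b sample and above every sample of Vmp1 (49.0 to 102). Becn1 at 49.2, Gabarapl1 at 46.0, Atg3 at 39.0 and Tax1bp1 at 35.9 FPKM were neighbours with overlapping ranges. The lowest means were those of Atg4c at 0.787, Ulk2 at 0.926, Atg2b at 1.37, Ambra1 at 2.35 and Ulk1 at 2.58 FPKM. The 5 ATG8 genes together held 53.1% to 68.6% of the summed FPKM of the 38 genes, with the lowest share in AT2-BLM replicate 3 and the highest in AT2-PBS replicate 3.

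**Figure D1:**
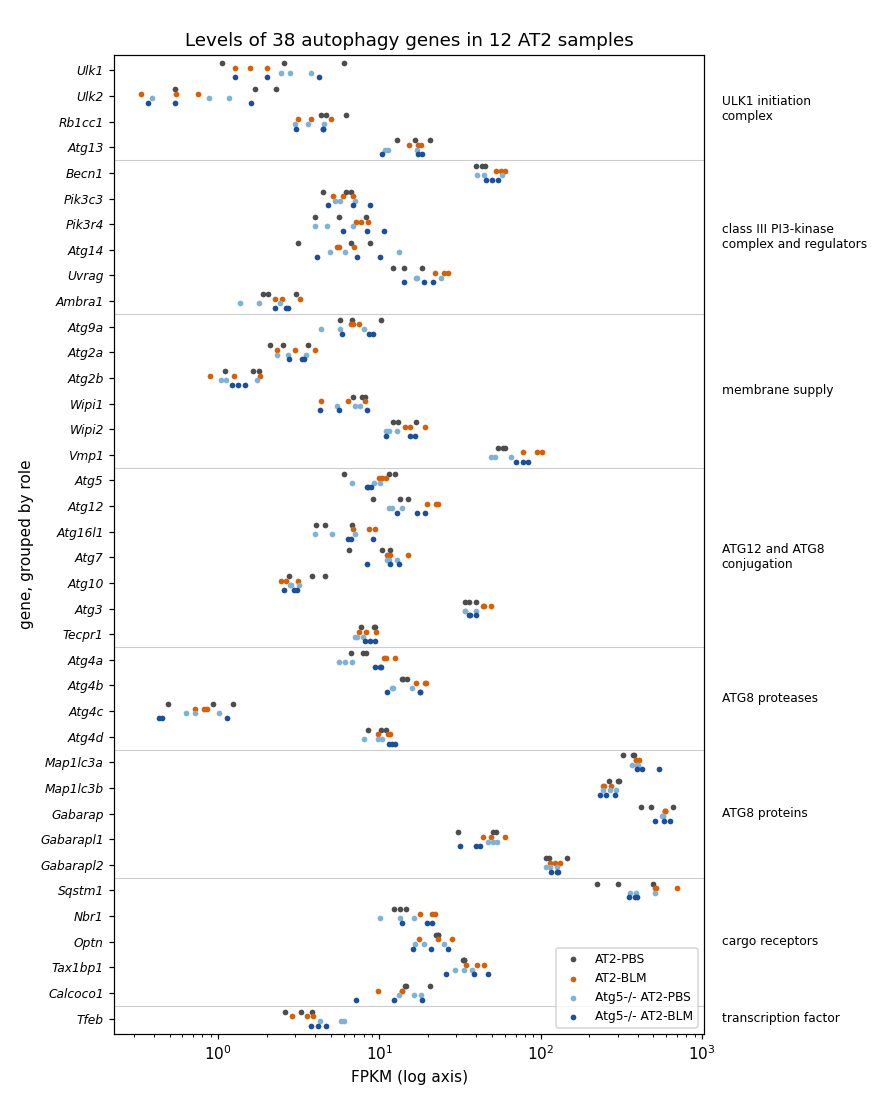
FPKM on a log axis of each of the 38 genes in the 12 samples, 1 point a sample, coloured by group and ordered by role. The ATG8 genes and Sqstm1 stand highest, Gabarap at a mean of 563 FPKM, and Atg4c and Ulk2 lowest at means of 0.787 and 0.926 FPKM.

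How far samples of a group differed also varied by gene. The pooled SD within groups, on the log2(FPKM + 1) scale, was 0.27 at the median of all genes tested. It was largest for the kinase gene Ulk1 at 0.56, for Atg14, which encodes the VPS34 complex subunit that directs it to autophagosomes, at 0.55, and for Ulk2 at 0.42, and smallest for Atg3 at 0.10, Atg4a at 0.11, Tecpr1 at 0.12 and Map1lc3b at 0.13. In AT2-PBS, for example, Ulk1 was at 2.55, 1.06 and 6.00 FPKM, while the E2-like enzyme gene Atg3 was at 36.2, 33.9 and 40.0 FPKM.

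Atg5, the deleted gene, was measured at 12.5, 6.01 and 11.5 FPKM in AT2-PBS, 11.1, 9.97 and 10.3 in AT2-BLM, 9.24, 6.72 and 10.1 in Atg5-/- AT2-PBS, and 8.84, 8.46 and 8.37 in Atg5-/- AT2-BLM. The PBS groups overlapped, and every Atg5-/- AT2-BLM sample lay below every AT2-BLM sample. The log2 fold change of Atg5-/- against Atg5f/f cells was -0.26 ± 0.23 (SE) with BLM (limma adjusted p = 0.796) and -0.14 ± 0.23 with PBS (limma adjusted p = 0.781). These values are for the whole gene (chr10:43988164-44084097, plus strand, mm9). The labels do not name the floxed exon, the table holds no exon values, and a transcript that lacks an exon is still counted, so they do not check the genotype. With BLM in Atg5f/f cells Atg5 changed by 0.11 ± 0.23 on the log2 scale (limma adjusted p = 0.757), a 95% interval of -0.39 to 0.62, and this turned negative without AT2-PBS replicate 2, at -0.18, and under 3 other scalings.

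**Figure D2:**
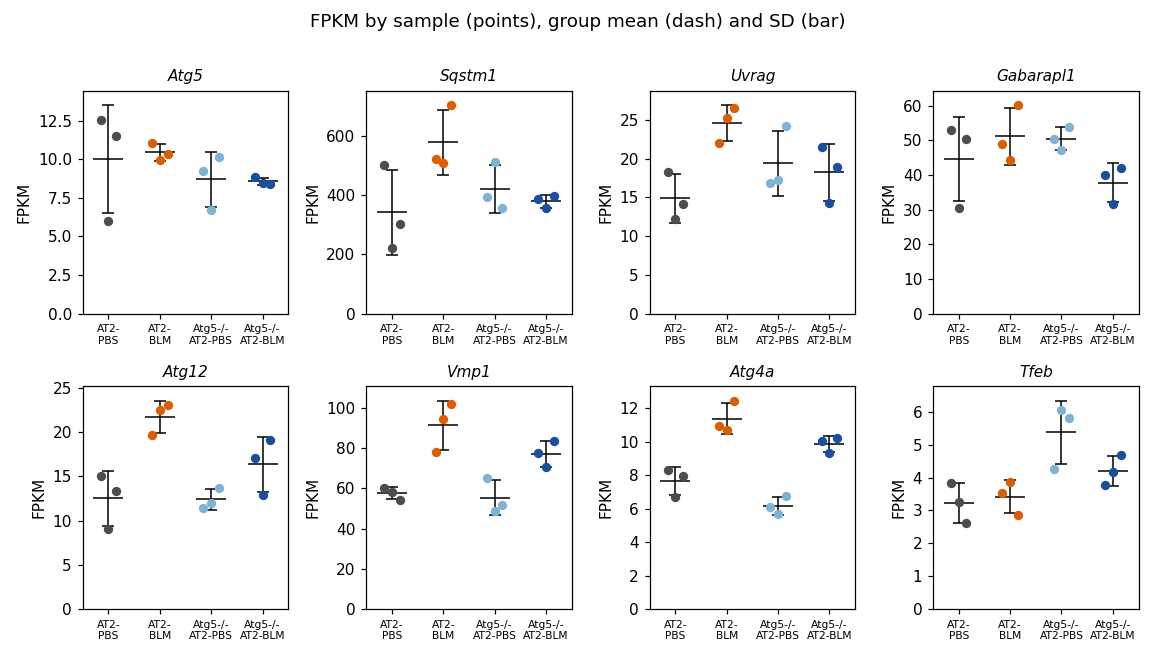
FPKM of Atg5, Sqstm1, Uvrag, Gabarapl1, Atg12, Vmp1, Atg4a and Tfeb in each of the 12 samples (points), with group mean and SD (n = 3), on axes that start at 0. Atg12, Vmp1, Atg4a, Uvrag and Sqstm1 were higher in every AT2-BLM than in every AT2-PBS sample.

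The comparison of AT2-BLM with AT2-PBS asks how injury changed these genes where Atg5 is intact. The criteria of the study, which set what is called here, were p under 0.05 without adjustment together with a change of 1.4-fold or more, read from limma fitted across all genes tested. Of the 38, 7 were called higher, where 20.6% of all genes tested were, and 0 were called lower, where 7.77% were. An adjusted p under 0.05 was reached by 5, where 17.4% of all genes tested did. The 3 AT2-BLM samples lay above the 3 AT2-PBS samples for 12 of the 38 genes (28.9% of all genes tested) and below them for 1 (11.3% of all). The median log2 fold change was 0.13 over the 38 and 0.17 over all genes tested. Of the 38 genes, 9 had an unadjusted p under 0.05. Of all genes tested, at least those called had such a p, 20.6% higher and 7.77% lower.

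None of the 4 genes of the ULK1 initiation complex was called. Ulk1 and Ulk2, its kinases, Rb1cc1, its FIP200 scaffold, and Atg13, its adaptor, had log2 fold changes from -0.64 for Ulk2 to 0.05 for Atg13. Ulk2 was at 1.51 ± 0.892 FPKM in AT2-PBS and 0.542 ± 0.207 in AT2-BLM (SD, n = 3), and it was called lower under 5 of 18 other settings, among them without AT2-PBS replicate 1 and without the 3 libraries with insulin transcripts.

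In the VPS34 complex and its regulators, Uvrag was called. It encodes a Beclin 1 partner that acts in autophagosome maturation and endosomal traffic. Uvrag was at 18.3, 12.2 and 14.1 FPKM in AT2-PBS, 22.0, 25.3 and 26.5 in AT2-BLM, 16.8, 17.2 and 24.2 in Atg5-/- AT2-PBS, and 21.5, 14.3 and 18.9 in Atg5-/- AT2-BLM. All AT2-BLM samples were above all AT2-PBS samples, a log2 fold change of 0.70 ± 0.20 (SE; 1.63-fold, limma adjusted p = 0.0331). Becn1, which encodes Beclin 1 itself, was at 42.8 ± 2.69 FPKM in AT2-PBS and 56.6 ± 3.48 in AT2-BLM, also without overlap, but its log2 fold change of 0.39 was below the fold of 1.4. The lipid kinase gene Pik3c3, its regulatory subunit gene Pik3r4, Atg14 and Ambra1, which encodes a regulator of Beclin 1, were not called, with log2 fold changes from 0.05 for Pik3c3 to 0.38 for Pik3r4.

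Among genes of membrane supply, Vmp1, which encodes a lipid scramblase of the endoplasmic reticulum, was at 60.4, 58.4 and 54.3 FPKM in AT2-PBS, 77.9, 94.6 and 102 in AT2-BLM, 65.3, 49.0 and 51.7 in Atg5-/- AT2-PBS, and 77.8, 70.6 and 83.5 in Atg5-/- AT2-BLM. Both BLM groups lay above both PBS groups. With BLM in Atg5f/f cells Vmp1 rose by 0.65 ± 0.15 on the log2 scale (1.57-fold, limma adjusted p = 0.0138). The gene contains the microRNA gene Mir21a in the RefSeq annotation, and whether its reads entered the FPKM of Vmp1 was not tested. Atg9a, the scramblase of ATG9 vesicles, the lipid carriers Atg2a and Atg2b and the phosphoinositide-binding Wipi1 and Wipi2 were not called, from -0.27 for Wipi1 to 0.22 for Wipi2.

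Of the 7 conjugation genes, Atg12 and Atg16l1 were called. Atg12, the ubiquitin-like protein that is joined to ATG5, was at 15.1, 9.09 and 13.3 FPKM in AT2-PBS, 19.7, 22.5 and 23.1 in AT2-BLM, 11.5, 12.0 and 13.7 in Atg5-/- AT2-PBS, and 17.0, 12.9 and 19.1 in Atg5-/- AT2-BLM. Its AT2-BLM samples were the highest 3 of the 12. The log2 fold change was 0.78 ± 0.19 (1.71-fold, limma adjusted p = 0.0196), and the gene overlaps Ap3s1 in RefSeq, so that reads of the 2 genes may not be fully separated. Atg16l1, which completes the complex with ATG12 and ATG5, was at 5.14 ± 1.44 FPKM in AT2-PBS and 8.29 ± 1.29 in AT2-BLM, 0.61 ± 0.23 on the log2 scale (limma adjusted p = 0.0863). It was no longer called without AT2-PBS replicate 2 (0.49) or 3 (0.56) or without AT2-BLM replicate 2 (0.53) or 3 (0.58). Atg3 was at 36.7 ± 3.08 and 45.8 ± 3.09 FPKM without overlap, below the fold of 1.4 at 0.31. Atg5, the E1-like Atg7, the E2-like Atg10 and Tecpr1, which tethers autophagosomes to lysosomes, were not called, from -0.32 for Atg10 to 0.40 for Atg7.

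The ATG4 proteases trim ATG8 proteins before conjugation and release them afterwards. Atg4a was at 8.30, 6.69 and 7.93 FPKM in AT2-PBS, 11.0, 10.7 and 12.5 in AT2-BLM, 6.12, 5.66 and 6.74 in Atg5-/- AT2-PBS, and 10.1, 9.33 and 10.3 in Atg5-/- AT2-BLM. Each BLM group lay above both PBS groups. The log2 fold change in Atg5f/f cells was 0.52 ± 0.14 (1.44-fold, limma adjusted p = 0.0284), just above the fold required, and fell below it without AT2-PBS replicate 2 (0.44) or AT2-BLM replicate 3 (0.46). Atg4a overlaps Psmd10 in RefSeq. Atg4b, Atg4c and Atg4d were not called, from -0.05 for Atg4c to 0.35 for Atg4b.

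None of the 5 ATG8 genes was called. Map1lc3b, which encodes LC3B, the usual marker protein of autophagosomes, was at 301, 266 and 308 FPKM in AT2-PBS, 275, 243 and 246 in AT2-BLM, 268, 245 and 294 in Atg5-/- AT2-PBS, and 289, 232 and 255 in Atg5-/- AT2-BLM. All groups overlapped. The log2 fold change with BLM in Atg5f/f cells was -0.19 ± 0.14 (limma adjusted p = 0.335), and its 95% interval of -0.49 to 0.10 leaves out a rise of 1.4-fold. Map1lc3a, Gabarap, Gabarapl1 and Gabarapl2 had log2 fold changes from 0.02 for Gabarapl2 to 0.22 for Gabarapl1.

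Of the cargo receptors, Sqstm1 and Nbr1 were called. Sqstm1, whose product p62 binds ubiquitinated cargo, was at 500.3, 223 and 303 FPKM in AT2-PBS, 521, 508 and 702 in AT2-BLM, 392, 512 and 357 in Atg5-/- AT2-PBS, and 385, 355 and 398 in Atg5-/- AT2-BLM. The lowest AT2-BLM sample was just above the highest AT2-PBS sample, which was a library with insulin transcripts. The log2 fold change was 0.82 ± 0.26 (1.76-fold, limma adjusted p = 0.0476), and 1.13 without the 3 libraries with insulin transcripts. Over 18 other settings it ran from 0.55 to 1.13, with a limma adjusted p of up to 0.33. The call was lost with scaling to Cdh1 and at a fold of 2. Nbr1, a related receptor, was at 13.5 ± 1.08 FPKM in AT2-PBS and 20.3 ± 2.27 in AT2-BLM, 0.56 ± 0.20 on the log2 scale (limma adjusted p = 0.0752), and it was not called without AT2-PBS replicate 2 (0.50) or AT2-BLM replicate 2 (0.50). The receptor genes Optn, Tax1bp1 and Calcoco1 were not called, at -0.02, 0.24 and -0.38. Tfeb, which encodes a transcription factor of lysosomal and autophagy genes, was at 0.07.

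Which of these genes were called depended on how the samples were scaled. The median of all genes tested was 0.17 with FPKM as deposited, -0.015 when quantile normalized and 0.020 when scaled by median ratios. The split of all called genes moved with it, from 2202 higher and 829 lower to 1235 and 1398 with quantile normalization, 1405 and 1355 with median-ratio scaling, and 986 and 1288 with scaling to Cdh1. Of the 38 genes, 2 were then called higher and 2 lower with quantile normalization, 3 and 1 with median-ratio scaling, and 1 and 1 with scaling to Cdh1. Relative to the median of all genes, the changes were 0.65 for Sqstm1, 0.60 for Atg12, 0.53 for Uvrag, 0.47 for Vmp1, 0.44 for Atg16l1, 0.38 for Nbr1 and 0.35 for Atg4a. Atg12 passed the call rule under each of these scalings. Markers of alveolar type 1 cells, to which AT2 cells give rise, summed to 2353 to 3462 FPKM in AT2-BLM and 1867 to 2273 in AT2-PBS, with 5 of 6 genes higher in every AT2-BLM sample, and 3 of 8 leukocyte genes were higher in every AT2-BLM sample (sums of 21.0 to 50.7 FPKM). Their part in the result was not tested.

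**Figure D3:**
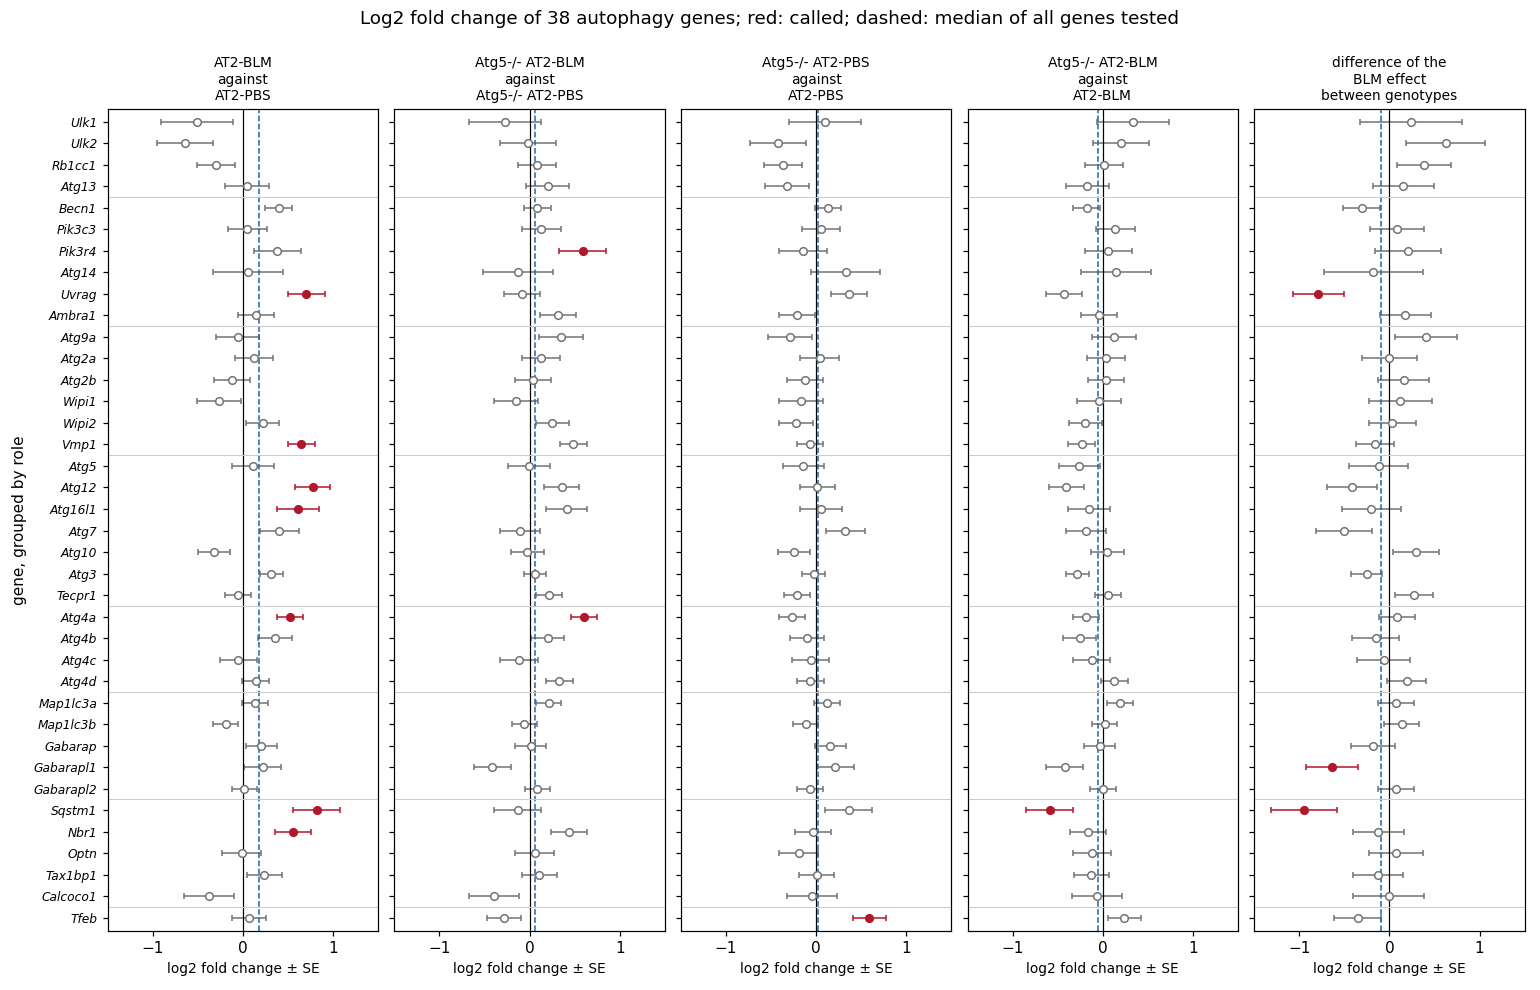
Log2 fold change ± SE (limma on log2(FPKM + 1), 3 samples a group) of the 38 genes in 5 comparisons, 1 panel each; red points passed the call rule, grey ones did not, and the dashed line is the median of all genes tested. AT2-BLM against AT2-PBS has 7 red points, all to the right, and the difference between genotypes has 3, all to the left.

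The comparison of Atg5-/- AT2-BLM with Atg5-/- AT2-PBS gives the effect of BLM where Atg5 is deleted. Of the 38 genes 2 were called higher, where 7.66% of all genes tested were, and 0 lower, where 10.7% were, and 1 had an adjusted p under 0.05 (8.65% of all). Samples did not overlap for 4 genes that were higher (13.1% of all) and 1 that was lower (11.8% of all). Atg4a rose by 0.60 ± 0.14 on the log2 scale (1.52-fold, limma adjusted p = 0.0209), and the size of its BLM effect differed between genotypes by 0.08 ± 0.20 (limma adjusted p = 0.864), a 95% interval of -0.36 to 0.52. It kept this call without any 1 library, but without the 3 libraries with insulin transcripts, which leaves 1 Atg5-/- AT2-PBS sample assumed to vary like the others, its 0.49 was no longer called. Pik3r4 was at 5.20 ± 1.51 FPKM with PBS and 8.35 ± 2.39 with BLM, with overlap (0.59 ± 0.26, limma adjusted p = 0.215). It was not called without either of Atg5-/- AT2-PBS replicates 1 (0.45) and 2 (0.54) or Atg5-/- AT2-BLM replicates 1 (0.41) and 3 (0.57), nor without the 3 libraries (0.21). Vmp1 was higher in every BLM sample at 0.48 ± 0.15, just below the fold of 1.4. Tecpr1 and Atg4d were also higher in every BLM sample, at 0.22 and 0.33, and Gabarapl1 lower in every one, at -0.42. The other log2 fold changes lay between -0.39 for Calcoco1 and 0.43 for Nbr1. The leukocyte list summed to 158 to 177 FPKM in Atg5-/- AT2-PBS and to 22.0 to 47.4 in Atg5-/- AT2-BLM, and the alveolar type 1 markers to 1446 to 1739 and to 2176 to 2564 FPKM. In the same order, the airway list summed to 22978 to 84299 and to 1083 to 2130 FPKM. Their part in these values was not tested.

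The difference of the BLM effect between genotypes was tested in the same fit. It is the log2 fold change with BLM in Atg5-/- cells minus that in Atg5f/f cells. Of the 38 genes 3 had a lower BLM effect in Atg5-/- cells, where 15.2% of all genes tested did, and 0 a higher one, where 5.02% did, and 0 had an adjusted p under 0.05, where 7.89% of all did. The median was 0.02 over the 38 genes and -0.09 over all genes tested. For Sqstm1 the BLM effect was 0.82 in Atg5f/f cells and -0.13 in Atg5-/- cells, a difference of -0.95 ± 0.37 (limma adjusted p = 0.153). Without AT2-PBS replicate 2, Atg5-/- AT2-PBS replicate 2 or AT2-BLM replicate 3 it was -0.68, -0.80 and -0.80 and not called. For Uvrag the effects were 0.70 and -0.09, a difference of -0.79 ± 0.29 (limma adjusted p = 0.127) that was called without any 1 of the 12 libraries. For Gabarapl1, which encodes a GABARAP-type ATG8 protein, the effects were 0.22 and -0.42, a difference of -0.64 ± 0.29 (limma adjusted p = 0.241). Its means were 44.6 ± 12.2 FPKM in AT2-PBS, 51.1 ± 8.17 in AT2-BLM, 50.4 ± 3.30 in Atg5-/- AT2-PBS and 37.8 ± 5.55 in Atg5-/- AT2-BLM, and the call was lost without any 1 of 8 of the 12 libraries, with -0.39 to -0.68. With quantile normalization, and with Y-linked expression as a covariate, none of these differences was called. The other 35 genes had differences from -0.51 for Atg7 to 0.62 for Ulk2. All these differences use Atg5-/- AT2-PBS, in which the leukocyte list summed to 158 to 177 FPKM, against 6.01 to 14.9 in AT2-PBS. The fibroblast list summed to 87.0 to 97.4 against 3.49 to 12.6 FPKM, and the airway list to 22978 to 84299 against 4835 to 11587 FPKM. Of 8 AT2 markers, 5 were lower in every Atg5-/- AT2-PBS than in every AT2-PBS sample and 0 higher. The part of these transcripts in the differences was not tested.

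Atg5-/- AT2-BLM against AT2-BLM compares the genotypes after injury. Sqstm1 alone was called, lower by -0.59 ± 0.26 on the log2 scale (0.664-fold, limma adjusted p = 0.621), against 3.12% of all genes tested called lower, and 0 of the 38 were called higher, against 2.04%. None of the 38 had an adjusted p under 0.05, against 0.00937% of all genes tested. An unadjusted p under 0.05 was reached by 2 of 38, and by at least the 2.04% and 3.12% of all genes that were called. All 3 Atg5-/- AT2-BLM samples of Sqstm1 were below all 3 AT2-BLM samples, yet the call was lost without AT2-BLM replicate 1 (-0.66) or 3 (-0.44), or without Atg5-/- AT2-BLM replicate 1 (-0.60), 2 (-0.54) or 3 (-0.63). Samples also did not overlap for Uvrag, Atg5, Atg12, Atg3, Atg4a and Gabarapl1, which makes 7 genes that were lower (8.49% of all) and 0 higher (4.91% of all). Their log2 fold changes were -0.43, -0.26, -0.40, -0.28, -0.19 and -0.42. The remaining 31 genes lay between -0.26 for Atg4b and 0.34 for Ulk1, and the median was -0.05 over the 38 and over all genes tested. All genes called split as 218 higher and 333 lower. The split was 355 and 90 with scaling to Cdh1, and 229 and 142 without AT2-BLM replicate 3.

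Atg5-/- AT2-PBS against AT2-PBS compares the genotypes without injury. Tfeb alone was called higher, where 14.1% of all genes tested were, and 0 lower, where 5.16% were. None of the 38 had an adjusted p under 0.05 (11.2% of all did). An unadjusted p under 0.05 was reached by 1, and by at least the 14.1% and 5.16% of all genes that were called. Samples did not overlap for 1 gene that was higher (18.1% of all) and 0 that were lower (10.8% of all). Tfeb was at 3.23 ± 0.603 FPKM in AT2-PBS and 5.38 ± 0.966 in Atg5-/- AT2-PBS, and at 3.42 ± 0.510 and 4.21 ± 0.463 in AT2-BLM and Atg5-/- AT2-BLM. With PBS the log2 fold change of Tfeb was 0.59 ± 0.18 (1.51-fold, limma adjusted p = 0.0642), and without AT2-PBS replicate 3 it was 0.48 and not called. All 8 leukocyte, all 5 fibroblast and 4 of 5 airway markers were higher in every Atg5-/- AT2-PBS sample as well, with fibroblast sums of 87.0 to 97.4 against 3.49 to 12.6 FPKM. So were 4 of 6 liver and islet and 2 of 2 red cell markers, while 5 of 8 AT2 markers were lower in every such sample and 0 higher. Their part in the value for Tfeb was not tested. The other 37 genes had log2 fold changes from -0.42 for Ulk2 to 0.36 for Uvrag. Sqstm1, at 0.36 ± 0.26 (limma adjusted p = 0.465), was called without AT2-PBS replicate 1 and with scaling to Cdh1.

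A second list of 38 genes of the pathway that are not among the first 38, such as further receptors, fusion factors and regulators, had 36 genes tested, since Bcl2 and Tecpr2 were below the filter. With BLM in Atg5f/f cells 7 of the 36 were called higher, where 20.6% of all genes tested were, and 2 lower, where 7.77% were. Over 18 other settings 3 to 10 were higher and 0 to 6 lower, with 4 and 6 under median-ratio scaling and under scaling to Cdh1. Of all 10675 genes tested, 1405 were higher and 1355 lower under median-ratio scaling, and 986 and 1288 under scaling to Cdh1. Trp53inp1 and Trp53inp2, whose products bind ATG8 proteins, had log2 fold changes of 1.25 ± 0.30 and 1.02 ± 0.26 (limma adjusted p = 0.0171 and 0.0194). Bcl2l1, which encodes the Beclin 1 inhibitor and survival protein BCL-XL, rose by 1.22 ± 0.20, from 16.2 ± 2.22 to 39.3 ± 7.26 FPKM (limma adjusted p = 0.00321). Ncoa4, the ferritin receptor, Snap29, a fusion factor, Wdr45 and Zfyve1 made up the rest of the higher genes, at 0.80, 0.63, 0.53 and 0.61, and Wdfy3, an adaptor for aggregates, and Tmem41b, an endoplasmic reticulum scramblase, were the lower ones at -0.79 and -0.52.

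With BLM in Atg5-/- cells 3 genes of this list were called higher and 1 lower, where 7.66% and 10.7% of all genes tested were. Between the genotypes 0 and 1 were called with BLM (2.04% and 3.12% of all), and 2 and 3 with PBS (14.1% and 5.16% of all). For the difference of the BLM effect 3 were higher and 2 lower (5.02% and 15.2% of all). With scaling to Cdh1 these counts were 2 and 7, 2 and 0, 9 and 0, and 1 and 5, in the same order. Of all 10675 genes tested, 118 and 2444, 355 and 90, 2731 and 79, and 212 and 1795 were called with that scaling. Ncoa4 was at 1.00 ± 0.465 FPKM in AT2-PBS, 2.49 ± 0.941 in AT2-BLM, 5.77 ± 0.580 in Atg5-/- AT2-PBS and 1.92 ± 0.380 in Atg5-/- AT2-BLM. Its BLM effect differed between genotypes by -2.01 ± 0.33 (limma adjusted p = 0.0041), with the leukocyte list high in the same Atg5-/- AT2-PBS samples, and their part in this was not tested. Stbd1, the glycogen receptor, was at 39.8 ± 3.59, 43.8 ± 1.93, 24.3 ± 6.58 and 54.1 ± 5.49 FPKM in the same order, a difference of 1.01 ± 0.25 (limma adjusted p = 0.0272). Its lowest mean was in Atg5-/- AT2-PBS as well, and the part of transcripts of other cell types in this was not tested. Trp53inp2 rose with BLM in Atg5-/- cells as well, by 1.10 ± 0.26 (limma adjusted p = 0.0191). Bcl2l1 was lower in Atg5-/- AT2-BLM than in AT2-BLM, 25.3 ± 5.48 against 39.3 ± 7.26 FPKM, at -0.62 ± 0.20 (limma adjusted p = 0.607).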

How the data were processed

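RNA of sorted AT2 cells was measured by RNA-seq in 12 samples. Per the methods of the study, stranded mRNA libraries were sequenced, reads were trimmed and aligned to mm9 with STAR, and FPKM per gene came from Cufflinks. The submitters' processing notes name Trimmomatic 0.36, HISAT2 2.2.1.0, Cufflinks 2.2.1 and HTSeq 0.9.1, and not STAR. The deposited FPKM, which the authors made, are the only values used; whether they include the DESeq normalization that the study mentions is not stated, nor is whether counting used strand. Read depth is not given, so no counting interval can be made; from the steps of low values, relative depth was 0.920 to 1.16 of that of AT2-PBS replicate 1.

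Log2(FPKM + 1) of the 10675 genes with at least 1 FPKM in at least 3 samples entered a linear model of the 4 group means in limma 3.58.1 (R 4.3.3) over all 12 samples, with lmFit, contrasts.fit and eBayes set to follow the mean-variance trend. Tests were two-sided, with Benjamini-Hochberg adjustment over all genes tested. Fold changes are on the log2(FPKM + 1) scale and understate those of low genes. Errors are SD for FPKM (n = 3) and SE for log2 fold changes. The fit was tested on simulated data, with each gene drawn independently from a normal distribution. These data held no scaling differences or transcripts of other cell types, so they do not check the calls against either. With 3 samples against 3, an exact permutation test could not go below p = 0.1, so none was used. The pairwise comparisons share groups, so they are not independent.

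The 38 genes, the second list, the marker lists, the comparisons and the alternatives were chosen with earlier results of these data known. All 38 genes are named; Atg5, Sqstm1, Map1lc3b and genes with an adjusted p under 0.05 are given in every sample. The calls and fold changes of the 38 genes, and the counts called in the second list, were recomputed with Cdh1, median ratios or quantiles as the scaling, no filter on low values, a pseudocount of 0.1, only the compared groups in the fit, a replicate block, no trend, adjusted p, a fold of 2, Y-linked expression as a covariate and each sample left out; leaving out the 3 libraries with insulin transcripts was added after the data were seen. AT2-PBS replicate 3 carries another number in its description, and its title was used. Promoters came from RefSeq (GRCm38.p6), and gene positions from GENCODE on mm9. Figures were drawn with matplotlib 3.10.9.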

Additional observations from a re-analysis of the deposited data

Results flagged for a closer look

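The BLM effect differed between genotypes for 3 of the 38 genes by the test of the difference itself, before adjustment, and for 0 of them after adjustment. All 3 effects were lower in Atg5-/- cells. By the same rule 15.2% of all genes tested had a lower and 5.02% a higher effect there, and 7.89% differed after adjustment. The effect in Atg5-/- cells minus that in Atg5f/f cells was -0.95 for Sqstm1 (limma adjusted p = 0.153), -0.79 for Uvrag (limma adjusted p = 0.127) and -0.64 for Gabarapl1 (limma adjusted p = 0.241), against a median of -0.09 over all genes tested. For Sqstm1 and Uvrag the Atg5f/f groups did not overlap, with BLM higher, while the Atg5-/- groups did. For Gabarapl1 the Atg5f/f groups overlapped, and the Atg5-/- groups did not, with BLM lower. All 3 differences use the Atg5-/- AT2-PBS samples, in which the leukocyte list summed to 158 to 177 FPKM, against 6.01 to 14.9 in AT2-PBS. The airway list summed to 22978 to 84299 against 4835 to 11587 FPKM. The part of such transcripts in the differences was not tested. None of the 3 differences was called at a fold of 2, with quantile normalization or with the Y-linked covariate. Of 23 other settings, the call held in 19 for Uvrag, 16 for Sqstm1 and 6 for Gabarapl1.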

How the results depend on the processing

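With 7 genes called for AT2-BLM against AT2-PBS, the count was 4 with quantile normalization, 4 with median-ratio scaling, 2 with scaling to Cdh1 and 0 at a fold of 2, and 5 to 8 without 1 library. For Atg5-/- AT2-BLM against AT2-BLM (1 called) it was 0 without the filter, with each of the 3 scalings, the replicate block, adjusted p, a fold of 2 or the Y-linked covariate, and 0 (without Atg5-/- AT2-BLM replicate 2, and without replicate 1 or 3 of AT2-BLM) to 2 (without AT2-BLM replicate 2) without 1 library. For Atg5-/- AT2-PBS against AT2-PBS (1 called) it was 3 with quantile normalization, all lower, 6 with scaling to Cdh1, all higher, 0 with adjusted p or a fold of 2, 2 without the 3 libraries with insulin transcripts, and 0 (without AT2-PBS replicate 3) to 4 (without AT2-PBS replicate 1). For Atg5-/- AT2-BLM against Atg5-/- AT2-PBS (2 called) it was 1 without the filter, with only the compared groups, the replicate block, adjusted p or those 3 libraries left out, 7 with scaling to Cdh1, all lower, 0 at a fold of 2, and 1 (without Atg5-/- AT2-PBS replicate 2 or Atg5-/- AT2-BLM replicate 3) to 5 (without Atg5-/- AT2-BLM replicate 2), with 4 without Atg5-/- AT2-PBS replicate 3. For the difference between genotypes (3 called) it was 1 with quantile normalization, a higher one, 0 with adjusted p, a fold of 2 or the Y-linked covariate, and 1 (without AT2-PBS replicate 2, Atg5-/- AT2-PBS replicate 2 or AT2-BLM replicate 3) to 4 (without AT2-PBS replicate 1). The counts of all genes called, higher and lower, also varied. For AT2-BLM against AT2-PBS they were 726 and 256 at a fold of 2, and 1756 to 2361 and 685 to 865 without 1 library. Without AT2-PBS replicate 1 they were 1655 and 588 for Atg5-/- AT2-PBS against AT2-PBS, and 538 and 1713 for the difference. For Atg5-/- AT2-BLM against Atg5-/- AT2-PBS they were 1139 and 1182 without Atg5-/- AT2-BLM replicate 2, and 901 and 961 without Atg5-/- AT2-PBS replicate 3. The causes were not tested.

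Deviations of same-numbered samples from their group means correlated at 0.0036 to 0.23 between PBS and BLM of a genotype. Between genotypes the correlations were -0.24 to 0.11. With 3 samples a group, these values cannot settle whether same-numbered samples were paired. With the replicate block 8, 0, 1, 1 and 3 genes were called, in the order above. All genes called split as 1177 higher and 1587 lower with quantile normalization for Atg5-/- AT2-PBS against AT2-PBS (1507 and 551 as deposited). The same normalization gave 1148 and 1069 for BLM in Atg5-/- cells (818 and 1144), and 1362 and 1123 for the difference between genotypes (536 and 1620). Scaling to Cdh1 gave 2731 and 79, 118 and 2444, and 212 and 1795. For Atg5-/- AT2-BLM against AT2-BLM the split was 218 and 333 as deposited and 253 and 272 with quantile normalization. It was 281 and 244 with median-ratio scaling, 355 and 90 with scaling to Cdh1, and 229 and 142 without AT2-BLM replicate 3.

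Of the called log2 fold changes none changed sign under any setting. Of those not called, 18 of 31, 20 of 37, 32 of 37, 29 of 36 and 25 of 35 did in some setting, in the order above. That of Atg5, never called, did so in every comparison but Atg5-/- AT2-BLM against AT2-BLM. With BLM in Atg5f/f cells it was -0.082 with quantile normalization, -0.062 with median-ratio scaling, -0.11 with scaling to Cdh1 and -0.18 (without AT2-PBS replicate 2) to 0.29 without 1 library. Between genotypes with PBS it was 0.21 with scaling to Cdh1, 0.25 without the 3 libraries, and -0.44 to 0.035 without 1 library. With BLM in Atg5-/- cells it was 0.0067 with quantile normalization, 0.11 with the Y-linked covariate and -0.16 to 0.10 without 1 library. For the difference it was 0.089 and 0.054 under those 2 settings and -0.30 to 0.18 (without AT2-PBS replicate 2) without 1 library.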
